A study of Mus musculus with 48 samples.

Results

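The genes described here are 36 mouse genes of fatty acid oxidation, followed by RNA-seq in kidney slices that were kept alive outside the body. They were taken as the listed gene symbols, and 36 of 36 were found among the 55487 Ensembl genes of the deposited count table. By the known site of their products, 19 were placed in a mitochondrial arm, 12 in a peroxisomal arm, and 5 in neither (Acsl1, Crat, Eci2, Acad11 and Acot12, of other or shared location). All 36 passed the filter on low counts in every fit, and the lowest count of any of them in a library was 4, for Acox2.

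Kidneys were taken from males of C57BL/6J and DBA/2J, the inbred strains from which the BXD recombinant inbred lines were bred. Each strain was studied in 8 conditions with 3 libraries each, which gives 48 libraries in 16 groups. The conditions were an untreated control, tunicamycin (an inhibitor of protein N-glycosylation) and cyclosporin A (an immunosuppressant toxic to the kidney), each at 6 h and at 24 h. The other conditions were normoxia, which the titles call ischemia at 24 h, and normoxia followed by hyperoxia, which they call reperfusion at 24 h. The labels give neither drug doses, oxygen levels, the ages of the mice nor any genetic change. Both oxygen conditions stand under their own heading in the titles and have no control of their own, so an effect of oxygen and any other difference between these series of slices cannot be told apart. The libraries are labelled as biological replicates without saying which slices shared a mouse.

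Fatty acids are the main fuel of the proximal tubule, the segment of the nephron that reabsorbs most of the filtered solutes and is rich in mitochondria and peroxisomes. In mitochondria, acyl groups enter on carnitine and are shortened in cycles of dehydrogenation, hydration, a second dehydrogenation and thiolysis, with electrons passed through the electron transfer flavoprotein to the respiratory chain. Peroxisomes shorten very long, branched and dicarboxylic chains and bile acid precursors, and their first step, made by acyl-CoA oxidases, yields hydrogen peroxide, which catalase removes. Genes of both arms are known targets of the nuclear receptor PPAR alpha.

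The promoter windows of RefSeq (GRCm38.p6, from 250 bases before to 50 bases after a start) covered 32 of the 36 genes with 36 windows. They are shown here for the single gene with a PPAR alpha type element and for the gene pair that shares a promoter. The direct repeat AGGTCANAGGTCA with at most 1 mismatch, searched on both strands, occurred in 0.554% of all 32851 windows and, among the 32 genes, only in Acot12, an acyl-CoA thioesterase. The match lay on the minus strand, 110 to 98 bases before the start, and is in capitals below. Hadha and Hadhb, which encode the alpha and beta subunits of the mitochondrial trifunctional protein, are transcribed away from each other, and their windows overlapped by 228 bases. That stretch has no capitals because none of the motifs searched was in it.
Acot12, chr13:91741271-91741570, plus strand: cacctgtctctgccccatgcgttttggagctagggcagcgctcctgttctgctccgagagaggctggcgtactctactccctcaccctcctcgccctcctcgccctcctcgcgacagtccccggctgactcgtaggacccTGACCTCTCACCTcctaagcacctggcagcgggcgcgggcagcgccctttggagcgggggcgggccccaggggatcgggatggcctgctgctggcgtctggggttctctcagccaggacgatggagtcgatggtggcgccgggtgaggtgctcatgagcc
Hadha and Hadhb, chr5:30155003-30155230, plus strand: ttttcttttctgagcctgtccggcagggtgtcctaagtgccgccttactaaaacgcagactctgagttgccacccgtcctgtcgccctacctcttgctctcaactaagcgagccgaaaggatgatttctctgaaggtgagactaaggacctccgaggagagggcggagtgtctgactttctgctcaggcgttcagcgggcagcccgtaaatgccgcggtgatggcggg

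The HNF4 element CAAAGTCCA was in 0.475% of all windows and in 1 of the 32 genes, Abcd3, the peroxisomal importer of long-chain acyl-CoA, at bases 13 to 21 from its start. The element TCAAGGTCA of the estrogen-related receptors was in 0.423% of all windows and in 0 of the 32. These searches describe the letters of these windows only.

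Expression is given in CPM, the share of a gene in the counts of its library, with library sizes corrected by edgeR's TMM method (trimmed means of log ratios between libraries). Libraries held between 5619309 and 25137581 counts, with a median of 19607361. The shallowest, DBA/2J normoxia-hyperoxia replicate 2, stood below the next lowest, at 12384733 counts. Mitochondrial genome transcripts took 15.4% of counts in C57BL/6J and 8.16% in DBA/2J 6 h controls, 6.82% and 3.52% in 24 h controls, 23.9% and 12.3% under normoxia, and 14.1% and 13.7% under normoxia-hyperoxia (means, n = 3). Their part in the results below was not tested. Scaling by total counts alone moved the median log2 change of all genes from -0.02 to 0.19 in the comparison of control times. It moved that median from 0.05 to -0.22 for normoxia and from 0.00 to -0.17 for normoxia-hyperoxia against the 24 h control.

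In CPM per kilobase of merged exons in the C57BL/6J 6 h controls, the highest level among the 36 genes was that of Etfb (201 CPM per kb), the beta subunit of the electron transfer flavoprotein. Catalase (Cat, 149.6), Etfa (135.5), the alpha subunit of the same flavoprotein, and Pecr (125.8), a peroxisomal enoyl-CoA reductase, followed. At the lower end stood Acox2 (5.02), the oxidase of branched chains and bile acid intermediates, and Acad10, a poorly characterised acyl-CoA dehydrogenase. Part of the transcript of some genes is also found in another gene, which makes their levels uncertain. In windows of 75 bases, 66.3% of Etfb was shared with Gm45233, 28.5% of Acaa1b with Acaa1a and 12.5% of Acaa1a with Acaa1b. Acad10 shared 12.4% with Acad12, Eci3 5.18% with Eci2 and Slc25a20 5.12% with Gm49015.

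Between 6 h and 24 h of control culture, fatty acid oxidation genes fell in both arms. Of the 36, 33 were lower at 24 h and 0 higher by edgeR's quasi-likelihood test (adjusted p under 0.05, mean of both strains), beside 37.4% of all genes called lower and 72% called in either direction. The fall covered 18 of 19 mitochondrial genes (median log2 change -1.18), 10 of 12 peroxisomal genes (-1.46) and 5 of 5 others, beside -0.02 over all genes tested. In both strains every 24 h library lay below every 6 h library for 33 of the 36, a pattern seen for 28.4% of all genes. The 3 genes that were not called were the carnitine-acylcarnitine carrier Slc25a20 (log2 change -0.13), Cat (-0.13) and Acox2 (0.07).

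Among mitochondrial genes the largest falls were those of Acsm3, a medium-chain acyl-CoA synthetase, and Hadh, the short-chain hydroxyacyl-CoA dehydrogenase. Acsm3 stood at 156, 99.4 and 123 CPM in C57BL/6J at 6 h and at 29, 32.9 and 29.6 at 24 h, while DBA/2J gave 165, 210 and 272 and then 69.9, 50.8 and 95.5. The groups did not overlap in either strain (log2 change -1.80 ± 0.18 SE, edgeR adjusted p = 2.3e-06). Hadh measured 365, 242 and 289 CPM at 6 h and 68.8, 95.1 and 81.1 at 24 h in C57BL/6J, with 396, 376 and 385 and then 153, 111 and 155 in DBA/2J (-1.65 ± 0.12, edgeR adjusted p = 2.8e-08). Again all 24 h libraries lay lowest. The acyl-CoA dehydrogenases open each cycle and differ in chain length. The medium-chain enzyme Acadm fell by 1.42 on the log2 scale and the short-chain enzyme Acads by 1.38, while the very-long-chain enzyme Acadvl fell by 1.00 and the long-chain enzyme Acadl by 0.49. Acadm held 334, 268 and 292 CPM in C57BL/6J at 6 h and 84.2, 109 and 90.3 at 24 h. In DBA/2J it held 339, 337 and 333 and then 156, 120 and 154, with no overlap. Both subunits of the trifunctional protein, which handles long chains after the first step, fell less than most (Hadha by 0.60, Hadhb by 0.80). Hadha lay between 285 and 291 CPM at 6 h and between 176 and 188 at 24 h in C57BL/6J, and between 268 and 279 and then 171 and 205 in DBA/2J.

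In the peroxisomal arm Eci3, an enoyl-CoA isomerase for unsaturated chains, and Pecr fell furthest. Eci3 measured 102, 56.8 and 79.7 CPM in C57BL/6J at 6 h and 9.75, 12.8 and 10.2 at 24 h, with 64, 58.4 and 90.6 and then 14.4, 11.9 and 19.3 in DBA/2J (-2.53 ± 0.18, edgeR adjusted p = 1.4e-07). Pecr measured 243, 147 and 182 CPM and then 26.8, 38.8 and 30.2 in C57BL/6J, with 346, 314 and 370 and then 86.7, 69.6 and 109 in DBA/2J (-2.25 ± 0.15, edgeR adjusted p = 3.2e-08). The 6 h and 24 h libraries were far apart for both genes. Ehhadh, the bifunctional enzyme of the peroxisomal cycle, fell 4.01-fold (log2 -2.00 ± 0.14), and Acot12 in neither arm fell 3.62-fold. Catalase, which was not called, stood at 477, 324 and 371 CPM in C57BL/6J at 6 h and at 416, 397 and 424 at 24 h, and in DBA/2J at 517, 518 and 565 and then 448, 343 and 436. Its C57BL/6J groups overlapped, while in DBA/2J all 24 h libraries lay below all 6 h libraries. Its change of -0.13 ± 0.10 over both strains did not pass (edgeR adjusted p = 0.219). Without C57BL/6J 6 h replicate 2, the lowest of its group, that adjusted p was 0.042 (log2 change -0.20), and with library totals the sign turned (0.077).

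All 25 proximal tubule markers also fell between 6 h and 24 h (median log2 change -2.65), beside 37.4% of all genes called lower. Their summed level was 17390 ± 5013 CPM at 6 h and 2325 ± 369 at 24 h in C57BL/6J, and 26438 ± 2946 and 6187 ± 1798 in DBA/2J (SD, n = 3). All 10 markers of the loop of Henle and distal tubule fell too (median -1.90), as did all 10 of the collecting duct (-1.40). In bulk samples, fewer cells of a type and less RNA per cell cannot be told apart. The part of these markers in the fall of the oxidation genes was not tested. Markers of adipocytes, which also oxidise fatty acids, summed to at most 36.2 CPM in any control or oxygen library, and Plin1, Cfd and Retn never exceeded 3 counts in any of the 48.

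**Figure D1:**
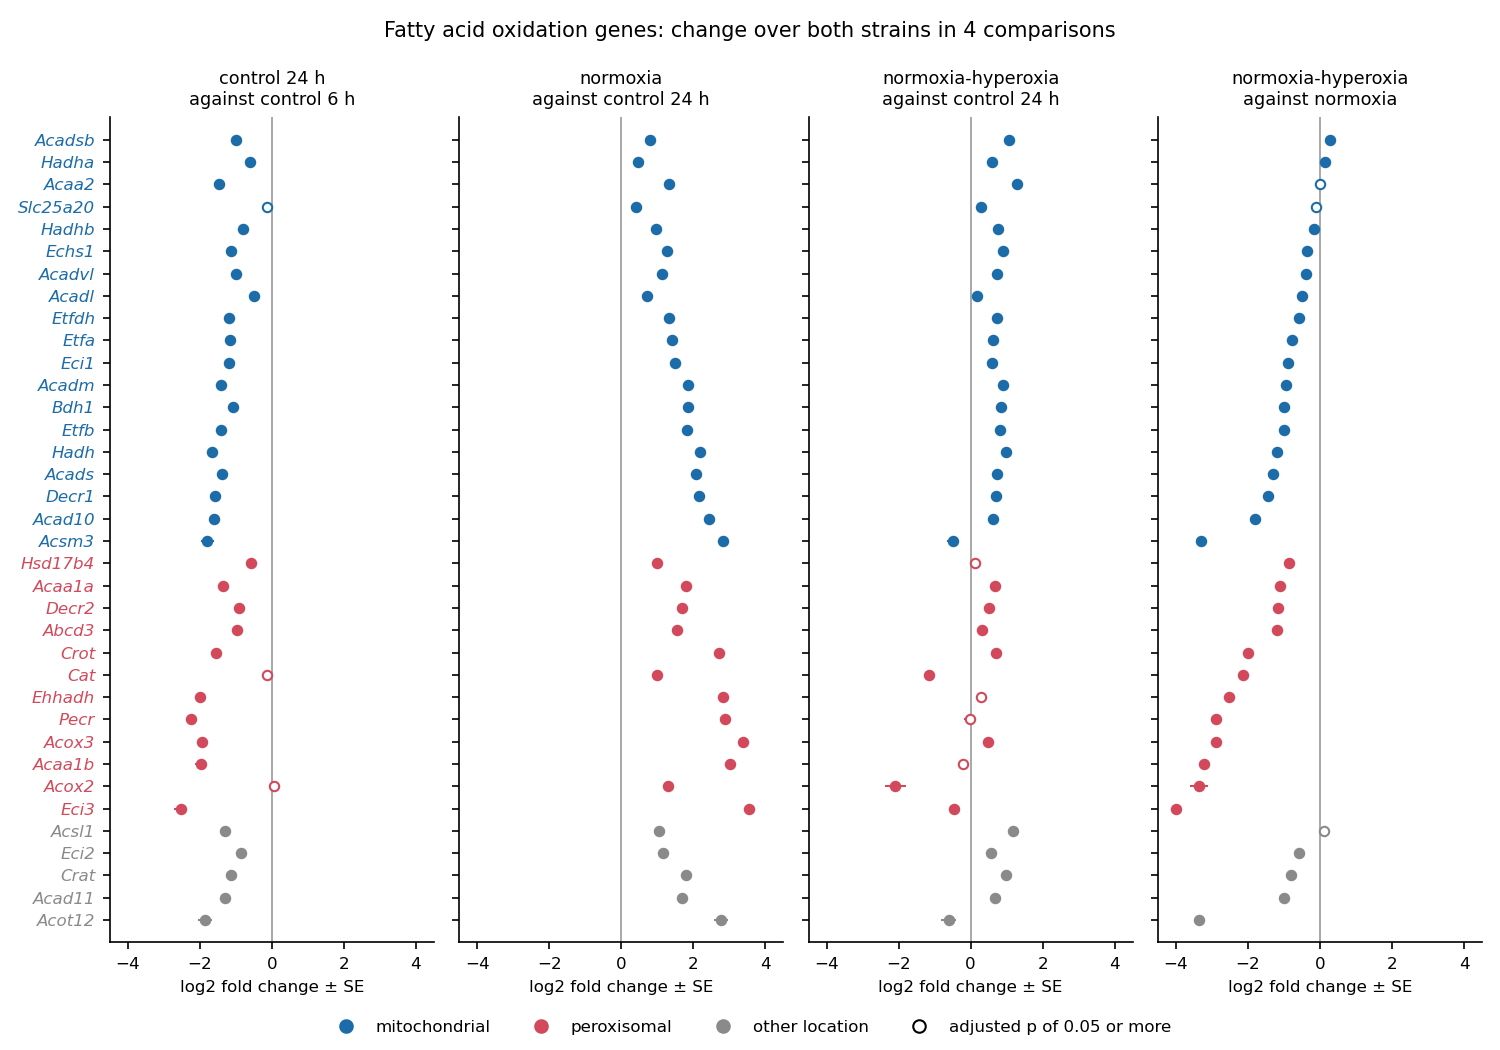
Log2 fold change over both strains (x axis, ± SE) of the 36 genes (y axis), coloured by arm, in 4 comparisons, with open circles where edgeR's adjusted p was 0.05 or more. In the first panel 33 genes lie at the left as called falls, in the second all 36 lie at the right, and in the last the peroxisomal genes lie further left than most mitochondrial ones.

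Under normoxia all 36 genes were higher than in the 24 h controls, against 42.4% of all genes called higher and 82% called in either direction. In both strains every normoxia library lay above every 24 h control library for each of the 36, which held for 34% of all genes. The median log2 change was 1.42 in the mitochondrial arm, 2.26 in the peroxisomal arm and 1.70 in the 5 other genes, against 0.05 over all genes. The rise exceeded 1 on the log2 scale in 14 of 19 mitochondrial and 10 of 12 peroxisomal genes (24.2% of all genes), and exceeded 2 in 5 of 19 and 6 of 12 (9.95% of all genes). This comparison shares its 24 h controls with the previous one, so the rise and the fall are not independent of each other.

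The largest rise belonged to Eci3, which reached 187, 166 and 170 CPM in C57BL/6J and 136, 134 and 140 in DBA/2J. No library of the 24 h controls passed 19.3 CPM (log2 change 3.56 ± 0.10, edgeR adjusted p = 3.3e-13). Acox3, a peroxisomal oxidase of branched chains, held 21.3, 22.8 and 24.8 CPM in C57BL/6J controls and 319, 217 and 214 under normoxia. In DBA/2J it held 42.5, 32.4 and 44.4 and then 397, 410 and 436 (3.39 ± 0.12, edgeR adjusted p = 7.0e-12). The spread within its groups was small beside the gap between them. Ehhadh stood at 20, 32.3 and 28.6 CPM in C57BL/6J controls and 243, 264 and 281 under normoxia, and at 61.3, 42.6 and 67.7 and then 303, 315 and 304 in DBA/2J (2.83 ± 0.13, edgeR adjusted p = 4.7e-10). The thiolase Acaa1b, which closes the peroxisomal cycle, rose by 3.02 on the log2 scale, its close relative Acaa1a by 1.80, and Crot, which hands shortened chains to carnitine, by 2.73.

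Acot12, outside both arms, rose 6.87-fold. Mitochondrial rises were led by Acsm3 and Acad10. Acsm3 reached 291, 409 and 359 CPM in C57BL/6J and 297, 315 and 370 in DBA/2J (2.84 ± 0.15, edgeR adjusted p = 3.2e-09). Acad10 held 7.57, 9.08 and 8.55 CPM in C57BL/6J controls and 58.4, 43.2 and 50.1 under normoxia, and 19.6, 11.3 and 17.6 and then 85.5, 80.9 and 78.7 in DBA/2J (2.44 ± 0.12, edgeR adjusted p = 3.0e-10). Its groups did not overlap, although part of this transcript is shared with Acad12. The smallest rises were those of Slc25a20 (0.41 ± 0.06) and Hadha (0.47 ± 0.05). Hadha lay between 252 and 260 CPM under normoxia in C57BL/6J and between 255 and 259 in DBA/2J, above its 24 h controls and below its 6 h controls. Catalase rose 1.99-fold, to 774, 656 and 794 CPM in C57BL/6J and to 1007, 977 and 821 in DBA/2J, its highest levels in the study's controls and oxygen groups.

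The 25 proximal tubule markers rose together with the oxidation genes (25 called higher, median log2 change 3.59, beside 42.4% of all genes called higher), to a sum of 40762 ± 4918 CPM in C57BL/6J and 60156 ± 2757 in DBA/2J (SD, n = 3). Markers of the loop of Henle and distal tubule rose in 10 of 10 cases (median 1.81) and podocyte markers in 0 of 7, with 5 falling (median -0.42), beside 82% of all genes called in either direction. Their part in the result was not tested. Markers of the collecting duct, endothelium, stroma and immune cells were also listed, and not every list is reported in each comparison.

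After normoxia followed by hyperoxia, called rises over the 24 h controls were more frequent in the mitochondrial than in the peroxisomal arm. The difference between the arms was not tested. In DBA/2J the gap between their medians, given below, overlapped with that of the 24 h controls, while by the mean it did not. Against the 24 h controls 27 of 36 genes were higher and 5 lower, beside 34.1% of all genes called higher and 34.1% lower (68.2% together). Higher were 18 of 19 mitochondrial genes (median 0.74), 5 of 12 peroxisomal genes (median 0.20) and 4 of 5 others (0.68). Lower were Cat, Acox2 and Eci3 among the peroxisomal genes, Acsm3 among the mitochondrial ones and Acot12 among the rest. In both strains 23 genes lay above and 2 below with no overlap of libraries, and these patterns held for 23.2% and 24.8% of all genes.

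Acaa2, the mitochondrial thiolase of medium chains, rose most, with 38.8, 53.3 and 44.4 CPM in C57BL/6J controls and 117, 124 and 114 after hyperoxia, and 30.2, 32.6 and 41 and then 77.8, 89.3 and 78.2 in DBA/2J (log2 change 1.30 ± 0.09, edgeR adjusted p = 1.2e-08). Acadsb, which acts on short branched chains, held 97.9, 102 and 87.6 CPM in C57BL/6J controls and 220, 239 and 203 after hyperoxia, with 86.9, 100 and 96.7 and then 189, 180 and 176 in DBA/2J (1.06 ± 0.06, edgeR adjusted p = 1.8e-09). In both genes the groups were apart in both strains. Acsl1, which activates long-chain fatty acids outside the matrix, rose 2.24-fold, to 261, 354 and 237 CPM in C57BL/6J and 163, 173 and 190 in DBA/2J. Among peroxisomal genes Crot (log2 change 0.70 ± 0.10) and Acaa1a (0.67 ± 0.08) rose most.

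Catalase moved the other way, to 170, 192 and 170 CPM in C57BL/6J and 233, 175 and 169 in DBA/2J, where no control library lay under 343 (-1.16 ± 0.09, edgeR adjusted p = 3.0e-08). Acox2 held 20.9, 16 and 18.2 CPM in C57BL/6J controls and 3.79, 5.33 and 1.92 after hyperoxia, with 8.80, 5.13 and 6.87 and then 3.18, 0.654 and 1.32 in DBA/2J (-2.09 ± 0.29, edgeR adjusted p = 3.7e-05). These were the 2 genes whose libraries were all lower in both strains, though Acox2 rested on few counts. Acsm3 was lower by less (-0.48 ± 0.16, edgeR adjusted p = 0.0215), and without DBA/2J normoxia-hyperoxia replicate 3 its adjusted p was 0.0524. Ehhadh was not called (0.29 ± 0.14, edgeR adjusted p = 0.091), but without C57BL/6J 24 h control replicate 2 its adjusted p was 0.0447, DESeq2 gave 0.0436 and the replicate block 0.028.

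Compared directly with normoxia, slices under normoxia-hyperoxia held less of 31 of the 36 transcripts and more of 2, beside 36.5% of all genes called lower, 37% higher and 73.5% in either direction. All 12 peroxisomal genes fell (median log2 change -2.33), as did 15 of 19 mitochondrial genes (-0.77) and 4 of 5 others (-0.82), beside 0.02 over all genes. A fall of more than 2 on the log2 scale was seen in 8 of 12 peroxisomal genes, 1 of 19 mitochondrial genes and 1 of 5 others (5.88% of all genes). In both strains 31 genes lay lower with no overlap, against 28.8% of all genes.

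Eci3 went from its highest to its lowest level, at 7.79, 11.6 and 7.70 CPM in C57BL/6J and 11.2, 8.5 and 9.72 in DBA/2J (-3.99 ± 0.10, 15.9-fold, edgeR adjusted p = 4.5e-14). Ehhadh held 37.9, 48.4 and 39.1 CPM in C57BL/6J and 64.6, 53.1 and 49.1 in DBA/2J after hyperoxia (-2.53 ± 0.08, edgeR adjusted p = 1.1e-12). Acox2 (-3.35 ± 0.24), Acaa1b (-3.21 ± 0.14), Acox3 (-2.89 ± 0.11), Pecr (-2.89 ± 0.14), Cat (-2.14 ± 0.10) and Crot (-2.01 ± 0.12) made up the rest of the 8. The smallest peroxisomal fall was that of Hsd17b4 (-0.86 ± 0.06), the multifunctional enzyme of branched chains and bile acids.

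In the mitochondrial arm Acsm3 stood apart, at 23.4, 32.6 and 18.1 CPM in C57BL/6J and 51.5, 41.2 and 44.5 in DBA/2J (-3.30 ± 0.14, edgeR adjusted p = 2.8e-10). Acad10 followed with -1.81 ± 0.08. Of the other acyl-CoA dehydrogenases, Acads fell by 1.31 and Acadm by 0.95, against 0.50 for Acadl and 0.40 for Acadvl. Acadm held 221, 245 and 206 CPM in C57BL/6J and 232, 211 and 195 in DBA/2J, between its 24 h control and normoxia levels in every library. The genes that rose were Acadsb (0.27 ± 0.06, edgeR adjusted p = 0.00143) and Hadha (0.13 ± 0.05, edgeR adjusted p = 0.0253). Hadha held 295, 303 and 299 CPM in C57BL/6J and 256, 245 and 259 in DBA/2J, where the groups overlapped. Its rise did not pass the threshold when any 1 of 9 of the 12 libraries was left out (adjusted p between 0.0525 and 0.0925). The exceptions were C57BL/6J normoxia replicate 2, DBA/2J normoxia replicate 1 and C57BL/6J normoxia-hyperoxia replicate 2, and without the filter on low counts the adjusted p was 0.19. Hadhb, with which it shares the promoter stretch printed above, fell by 0.17 (edgeR adjusted p = 0.00341), and Acaa2 (-0.01), Slc25a20 (-0.12) and Acsl1 (0.12) were not called.

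All 25 proximal tubule markers fell in the same comparison (median -4.06, beside 36.5% of all genes called lower), to a sum of 1880 ± 309 CPM in C57BL/6J and 3564 ± 720 in DBA/2J (SD, n = 3). Against the 24 h controls 3 of the 25 were higher and 12 lower (median -0.53), beside 34.1% of all genes in each direction. The loop of Henle and distal tubule markers were 10 of 10 higher (median 2.08), with a sum of 24957 ± 6308 and 22722 ± 231 CPM (SD, n = 3). Their part in the results under normoxia-hyperoxia was not tested.

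**Figure D2:**
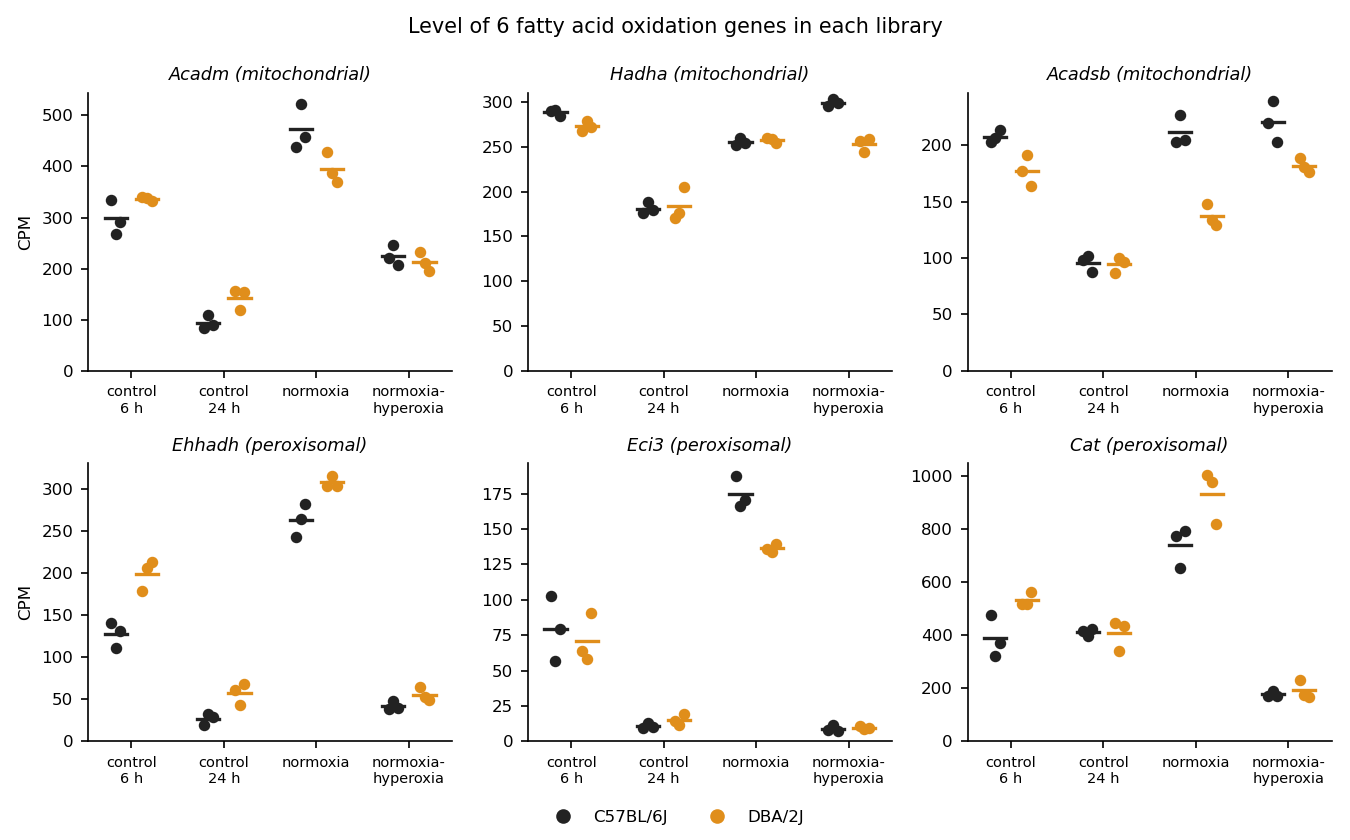
Level in CPM (y axis, from 0) of 6 genes in each library of the control and oxygen groups (x axis), with points for libraries, bars for means and colours for strains. Eci3 and Cat have their lowest means under normoxia-hyperoxia in both strains. Hadha in C57BL/6J and Acadsb in both strains stand there near their 6 h level.

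The 6 h controls, which are not matched to the oxygen groups in time, gave a further reference. Against them 28 of the 36 genes were higher and 4 lower under normoxia (32.9% of all genes in each direction, 65.8% together), with medians of 0.23 in the mitochondrial and 0.80 in the peroxisomal arm. The largest rises were Acox3 (1.41 ± 0.14) and Acox2 (1.32 ± 0.11). Under normoxia-hyperoxia 0 were higher and 28 lower than at 6 h (22.5% of all genes lower, 44.9% called), among them 13 of 19 mitochondrial genes (median -0.43) and 12 of 12 peroxisomal genes (median -1.35). The falls ran to -2.96 ± 0.18 for Eci3. Over the means of the control and oxygen groups, normoxia held the highest level in both strains for 12 of 12 peroxisomal and 16 of 19 mitochondrial genes, beside 29.3% of the 16127 genes tested in these comparisons. The lowest level in both strains was that of the 24 h controls for 18 of 19 mitochondrial genes and 6 of 12 peroxisomal genes, beside 28% of those tested. It was that of normoxia-hyperoxia for 1 of 19 and 4 of 12, beside 13.4%. From lowest to highest mean the median range was 2.90-fold over mitochondrial and 9.29-fold over peroxisomal genes in C57BL/6J, and 2.72-fold and 5.20-fold in DBA/2J.

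Over all 16 groups each arm was summarised as the median log2 CPM of its genes in a library, and the gap as the peroxisomal minus the mitochondrial median. The size of the gap depends on the lengths and numbers of the genes, so it is compared only between groups, as a description. In C57BL/6J the gap was -0.95 ± 0.10 in the 6 h controls, -1.16 ± 0.11 in the 24 h controls, 0.06 ± 0.03 under normoxia and -1.61 ± 0.13 under normoxia-hyperoxia (SD, n = 3). In DBA/2J it was -0.39 ± 0.16, -0.92 ± 0.19, -0.06 ± 0.14 and -0.96 ± 0.13 in the same order (SD, n = 3). The normoxia libraries did not overlap with those of any other C57BL/6J group, and the C57BL/6J normoxia-hyperoxia libraries lay below all others of that strain. In DBA/2J the lowest normoxia gap was -0.23, beside a highest of -0.19 in the cyclosporin 6 h group and -0.25 in the 6 h controls. The DBA/2J normoxia-hyperoxia gap overlapped with that of the 24 h controls. With the mean over the genes in place of the median, neither overlap in DBA/2J was present: its lowest normoxia gap was 0.02 and the highest of its other groups -0.32, and its normoxia-hyperoxia libraries reached at most -1.19 beside a lowest of -0.79 in the 24 h controls. The gaps by the mean were -0.56 ± 0.12 in the 6 h controls, -0.69 ± 0.07 in the 24 h controls, 0.04 ± 0.05 under normoxia and -1.51 ± 0.09 under normoxia-hyperoxia in C57BL/6J (SD, n = 3). In DBA/2J they were -0.43 ± 0.10, -0.66 ± 0.11, 0.06 ± 0.04 and -1.38 ± 0.17 (SD, n = 3). With the 5 other genes placed in the arms and the median kept, the DBA/2J normoxia libraries were also apart, at -0.15 or above beside at most -0.27 elsewhere in that strain. The strains' 6 h libraries, apart by the median, overlapped by the mean. By the median the drug group means lay between -0.37 and -1.03.

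**Figure D3:**
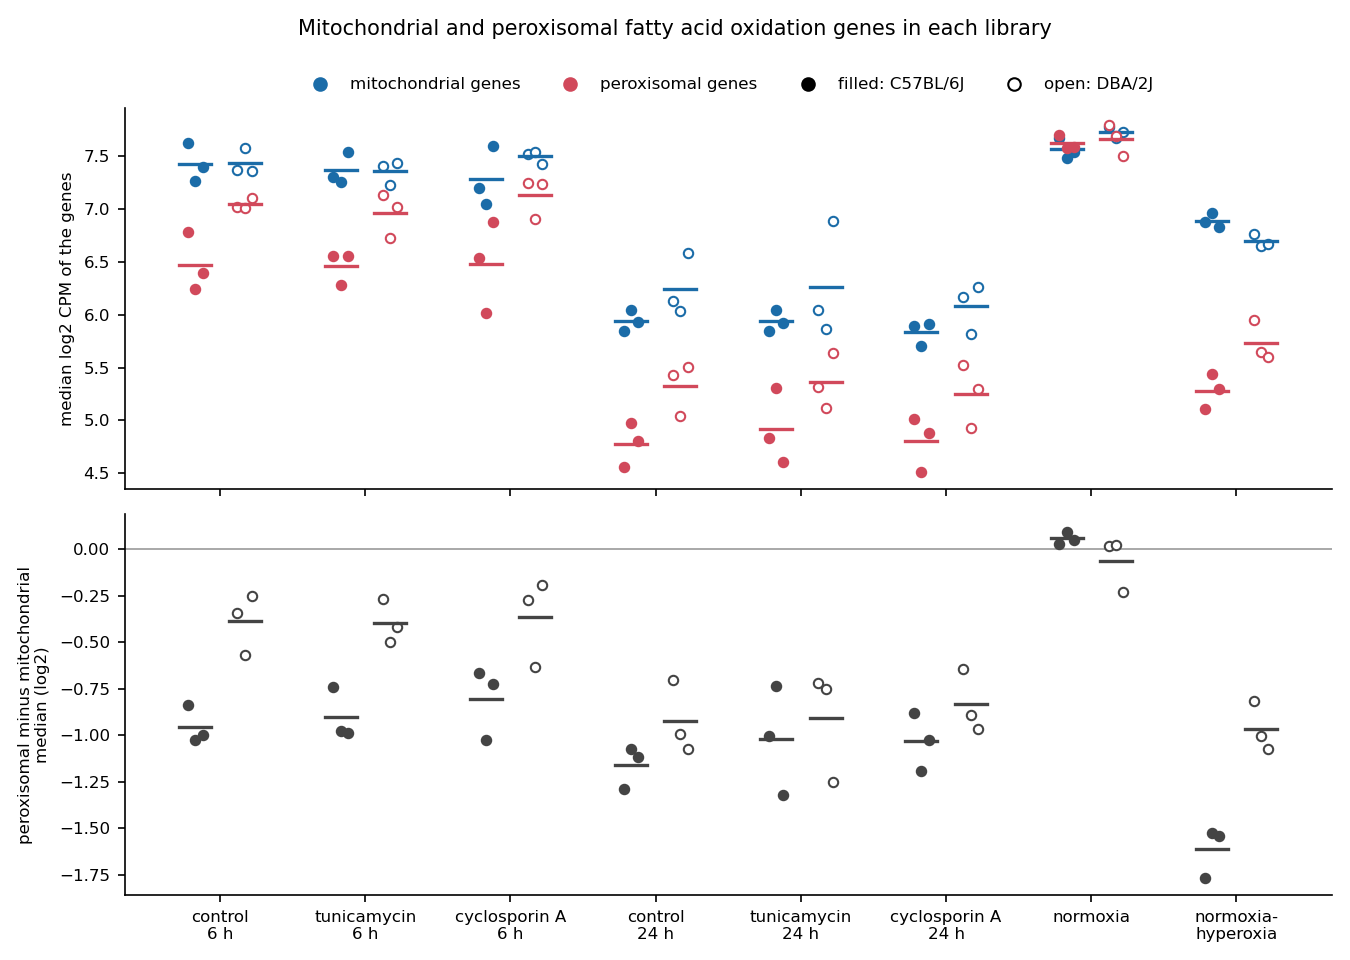
Median log2 CPM of the 19 mitochondrial and 12 peroxisomal genes in each library (upper panel, y axis) and the difference of the medians (lower panel, y axis) over the 8 conditions (x axis), with bars for group means. The difference is near 0 under normoxia, with means of 0.06 and -0.06, and is lowest in C57BL/6J under normoxia-hyperoxia, with a mean of -1.61.

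The drugs gave 1 call among the oxidation genes. By edgeR 0 of 36 were called for tunicamycin at 6 h, cyclosporin A at 6 h and cyclosporin A at 24 h, with 0, 1 and 1 at an unadjusted p under 0.05, and DESeq2 also called 0 in each. In these comparisons 0% of all genes were called. The changes lay between -0.24 and 0.18 on the log2 scale for tunicamycin at 6 h, between -0.08 and 0.21 for cyclosporin A at 6 h and between -0.18 and 0.10 for cyclosporin A at 24 h. The unadjusted 95% intervals reached a median of 0.21 to 0.24 to either side, and at the widest 0.40, 0.55 and 0.76 in the same order.

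Tunicamycin at 24 h raised 1 of the 36, Acox2, beside 0.97% of all genes called higher and 1.38% in either direction. It stood at 20.9, 16 and 18.2 CPM in C57BL/6J controls and at 28.1, 36.5 and 17 with the drug, and at 8.80, 5.13 and 6.87 and then 25.4, 28.4 and 19.9 in DBA/2J. The groups overlapped in C57BL/6J and were apart in DBA/2J. Over both strains the log2 change was 1.20 ± 0.19 (edgeR adjusted p = 0.0131), with 1.83 ± 0.27 in DBA/2J (adjusted p = 0.0399, beside 0.237% of all genes) and 0.57 ± 0.26 in C57BL/6J (adjusted p = 0.811). The difference between the strains, 1.27 ± 0.37, was not called by edgeR (adjusted p = 0.999). It was called for 0 of the 36 genes and 0% of all genes by edgeR, with 1 of the 36 at an unadjusted p under 0.05 and 0 called by DESeq2. The other 35 genes lay between -0.14 and 0.22.

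The strains differed in 17 to 23 of the 36 genes, depending on the condition. DBA/2J was higher than C57BL/6J for 11 of the 36 and lower for 6 in the 6 h controls (13.6% and 12.7% of all genes, 26.2% together), and higher for 17 and lower for 2 in the 24 h controls (13.9% and 8.27%, 22.2% together). Under normoxia it was higher for 17 and lower for 6 (28.3% and 18.5%, 46.8% together), and under normoxia-hyperoxia higher for 8 and lower for 9 (14.3% and 11.3%, 25.7% together). Scaling by total counts gave 17 higher and 3 lower, 18 and 2, 15 and 8, and 11 and 4 in the same order. Without the low-count filter the splits were 13 and 4, 18 and 3, 11 and 8, and 8 and 7. The count at 6 h was 10 without C57BL/6J 6 h replicate 2 and 24 without its replicate 1. The count under normoxia-hyperoxia was 11 without DBA/2J normoxia-hyperoxia replicate 1. The model over all 48 libraries called 9 in the 6 h controls, 14 under normoxia and 9 under normoxia-hyperoxia. The mean summed level of the 25 proximal tubule markers was higher in DBA/2J than in C57BL/6J in all 4 conditions. It was 26438 against 17390 CPM in the 6 h controls, 6187 against 2325 in the 24 h controls, 60156 against 40762 under normoxia and 3564 against 1880 under normoxia-hyperoxia. The part of these markers in the strain differences was not tested.

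Acot12 was the gene furthest above its C57BL/6J level in DBA/2J. It held 49.9, 29.5 and 36.1 CPM in C57BL/6J and 117, 123 and 125 in DBA/2J at 6 h (log2 difference 1.61), and 8.08, 9.30 and 9.28 against 54.4, 22.3 and 41.3 at 24 h (2.18 ± 0.30, edgeR adjusted p = 0.000322). Under normoxia it held 101, 76.2 and 82.4 against 208, 192 and 189 (1.20), and under normoxia-hyperoxia 5.18, 7.69 and 5.02 against 32, 22.9 and 20.5 (2.11 ± 0.20, edgeR adjusted p = 1.3e-05). The strains did not overlap in any of these conditions. Crat, the carnitine acetyltransferase, was also higher in DBA/2J in all 4, by 0.66, 1.10, 0.59 and 0.56, as was Pecr, by 0.80, 1.5, 0.93 and 1.24. In single libraries Crat held 32.6, 36.6 and 31.6 CPM in C57BL/6J against 69.3, 61.8 and 80.6 in DBA/2J in the 24 h controls, with no overlap. Bdh1, which interconverts ketone bodies, stood at 74.7, 61.1 and 65.6 CPM in C57BL/6J and at 125, 119 and 98.2 in DBA/2J at 6 h (0.71 ± 0.11, edgeR adjusted p = 0.000346).

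Acox2 and Acaa2 differed the other way. Acox2 stood at 24.1, 14.6 and 17.1 CPM in C57BL/6J and 6.43, 5.24 and 7.53 in DBA/2J at 6 h (-1.59 ± 0.22, edgeR adjusted p = 0.000154), and under normoxia at 61.6, 71.3 and 66.3 against 12.2, 11.9 and 11.6 (-2.46 ± 0.28, edgeR adjusted p = 3.9e-05). Under normoxia-hyperoxia its strain difference of -0.92 was not called (adjusted p = 0.134). Acaa2 held 197, 155 and 168 against 68.5, 76.1 and 69.2 CPM at 6 h (-1.34 ± 0.13, edgeR adjusted p = 6.3e-06) and 173, 151 and 171 against 64.1, 65.0 and 56.6 under normoxia (-1.40 ± 0.10, edgeR adjusted p = 4.9e-08). In the 24 h controls its difference of -0.37 was not called (adjusted p = 0.0676), and under normoxia-hyperoxia it was -0.50.

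**Figure D4:**
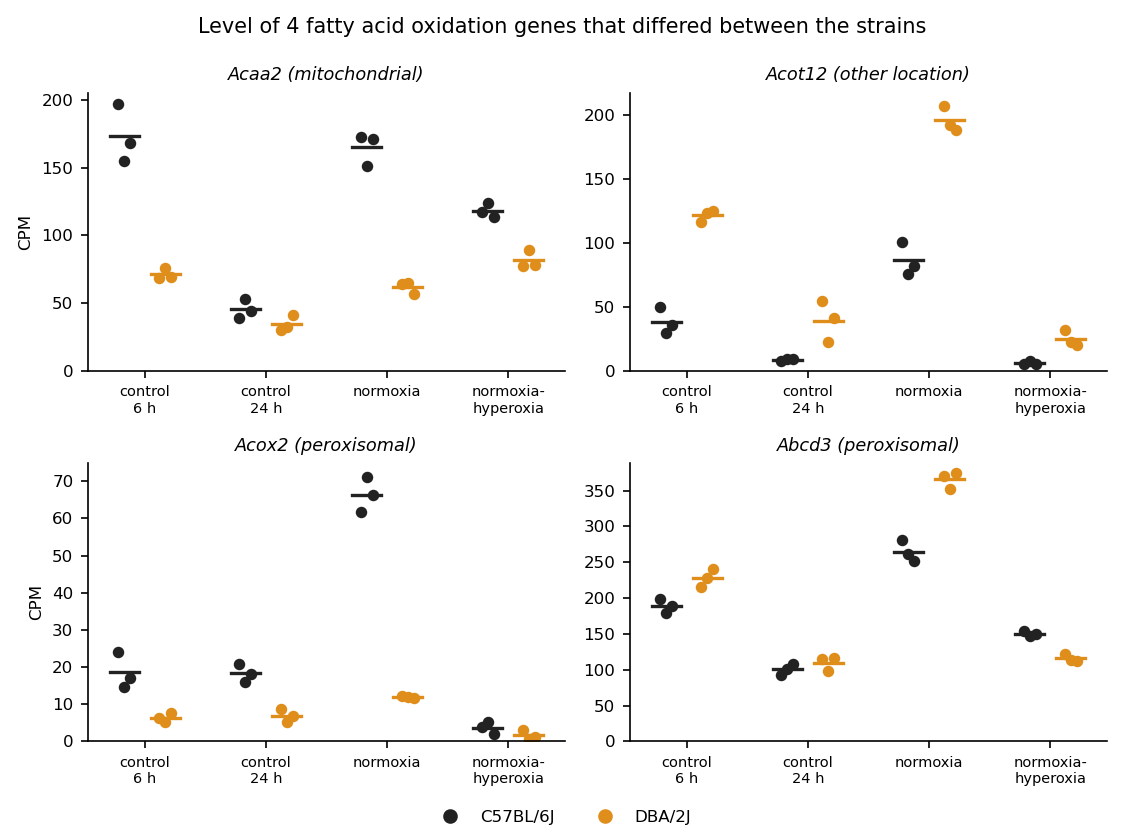
Level in CPM (y axis, from 0) of Acaa2, Acot12, Acox2 and Abcd3 in each library of the control and oxygen groups (x axis), with points for libraries, bars for means and colours for strains. Acot12 is higher in DBA/2J and Acaa2 higher in C57BL/6J at 6 h and under normoxia, and Abcd3 is higher in DBA/2J under normoxia and lower under normoxia-hyperoxia.

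The response to a condition also differed between the strains for some genes, tested as the interaction (the DBA/2J change minus the C57BL/6J change). Under normoxia against the 24 h controls it was called for 13 of the 36, beside 17% of all genes. For 12 of them the rise was smaller in DBA/2J (6.88% of all genes in that direction) and for 1 larger (10.1%). The model over all 48 libraries called 7. Acaa2 rose by 1.83 in C57BL/6J and 0.82 in DBA/2J (difference -1.02 ± 0.17, edgeR adjusted p = 0.00156). Acadm rose by 2.30 and 1.44 (-0.86 ± 0.17, edgeR adjusted p = 0.00322) and Acox2 by 1.83 and 0.75 (-1.08 ± 0.21, edgeR adjusted p = 0.00307). Among the 13 called, Acaa1a was the one that rose more in DBA/2J, by 2.02 against 1.57 (edgeR adjusted p = 0.0477). It was not called with DESeq2, library totals, DESeq2's size factors in edgeR or the model over all 48 libraries. The proximal tubule marker sums given with the strain differences rose in both strains here, from different control levels, and their part in the interaction was not tested.

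Between normoxia and normoxia-hyperoxia the strains' changes differed for 9 of the 36, 3 in the positive and 6 in the negative direction, beside 7.2% and 11% of all genes (18.2% together). With total counts the split was 8 and 2, without the low-count filter it was 7 and 3, with DESeq2 6 and 7, and with DESeq2's size factors in edgeR 4 and 5. The cause of these different splits was not tested. Abcd3 fell by 0.79 in C57BL/6J, from 281, 262 and 252 to 154, 147 and 150 CPM, and by 1.61 in DBA/2J, from 371, 352 and 374 to 123, 113 and 113 (difference -0.82 ± 0.11, edgeR adjusted p = 0.000428). The order of the strains was opposite in the 2 conditions, without overlap in either. Acaa2 fell by 0.46 in C57BL/6J and rose by 0.44 in DBA/2J (0.90 ± 0.13, edgeR adjusted p = 0.00059), and Acaa1a fell by 0.80 and 1.42 (-0.62 ± 0.13, edgeR adjusted p = 0.00557). For the control times 1 gene was called, beside 0.419% of all genes in that direction and 0.69% in either. Acaa2 fell by 1.95 in C57BL/6J and 0.98 in DBA/2J (0.97 ± 0.19, edgeR adjusted p = 0.0352), and with 8 of the 12 libraries left out one at a time the adjusted p lay between 0.0534 and 0.112. The exceptions were replicate 2 of the C57BL/6J groups at both times and replicates 1 and 2 of the DBA/2J 24 h controls. For normoxia-hyperoxia against the 24 h controls 0 were called, beside 1.43% of all genes, with 15 at an unadjusted p under 0.05, 6 by DESeq2 and 2 with the replicate block. In the model over all 48 libraries 4 were called between normoxia and normoxia-hyperoxia, 2 between the control times and 1 here.

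The rest of the pathway was followed through 47 further genes of fatty acid activation, transport and oxidation. At 24 h 2 were higher and 42 lower than at 6 h in the controls, beside 72% of all genes called and 37.4% called lower. Under normoxia 43 were higher and 3 lower than the 24 h controls, beside 82% of all genes called and 42.4% called higher. Against normoxia, 7 were higher and 35 lower under normoxia-hyperoxia, beside 73.5% of all genes called and 36.5% called lower. Cpt1a, the outer carnitine palmitoyltransferase and rate-controlling step of mitochondrial entry, fell by 1.31 between the control times, rose by 1.62 under normoxia, and was 0.47 lower under normoxia-hyperoxia than under normoxia. Cpt2, its partner in the inner membrane, gave -0.53, 1.44 and -1.34 in the same order. Acsm5, a relative of Acsm3, had the largest change of the list under normoxia (4.39 ± 0.16), and Slc27a2, a peroxisomal acyl-CoA synthetase that is also among the proximal tubule markers, the largest fall after hyperoxia (-5.23 ± 0.15).

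Of 19 genes of peroxisome assembly and membrane, 2 were higher and 15 lower at 24 h than at 6 h, 17 higher and 1 lower under normoxia, and 1 higher and 18 lower under normoxia-hyperoxia than under normoxia. Over all genes 72%, 82% and 73.5% were called in these comparisons. Scaled by library totals, 4 were higher and 7 lower at 24 h. The membrane proteins Pxmp4 (3.44 ± 0.12) and Pxmp2 (2.86 ± 0.13) rose most under normoxia.

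Of 18 regulators of these genes, 4 were higher and 11 lower at 24 h, 13 higher and 4 lower under normoxia, and 6 higher and 9 lower under normoxia-hyperoxia than under normoxia. The shares called in either direction were near those of all genes, 72%, 82% and 73.5%. Ppara, which encodes PPAR alpha, fell by 2.03 between the control times, rose by 2.48 under normoxia and was 1.58 lower under normoxia-hyperoxia than under normoxia. Hnf4a, a factor of the proximal tubule and liver, changed by -2.27, 3.59 and -3.00 in the same order. Ppargc1a, a coactivator of mitochondrial genes, differed: it fell by 2.19 between the control times, rose by 0.72 under normoxia, and was 1.21 higher under normoxia-hyperoxia than under normoxia.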

How the data were processed

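RNA-seq of 48 libraries of mouse kidney slices was deposited by the authors as one table of raw counts per Ensembl gene, with no normalization. The submitters' processing notes name bcl2fastq 2.20.0, FastQC 0.11.8, STAR 2.7.9a, featureCounts 1.5.1 and the build GRCm38. The strand setting of the counting is not given in the sources used here. Per the labels' protocols, stranded mRNA libraries were made from total RNA. Symbols were matched for 55141 of 55487 IDs. The members and all gene lists were chosen with earlier results of these data known.

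For every comparison a separate model took 12 libraries (4 groups of 3) in edgeR 4.0.16 (R 4.3.3, limma 3.58.1), using TMM factors, edgeR's default low-count filter and a robust quasi-likelihood F test with 8 residual degrees of freedom. P-values were adjusted by the Benjamini-Hochberg method over all genes tested in a contrast, and a gene was called under 0.05. They measure the spread between these libraries. Standard errors were derived from the log2 fold change and F. The 19 contrasts counted here were not adjusted for one another. Log2 CPM for the arm medians used a prior count of 2. Values per library were given, in most but not all comparisons, for Acadm, Hadha, Ehhadh and Cat and for members chosen by rule. These were, in each arm, the 2 largest called changes in each direction, and the largest called change among the others. In strain tests they were the 3 members with the smallest p. Crot and Acaa1a under normoxia-hyperoxia, among others, have log2 changes only. Other members are given as fold changes. From the other lists, at most 4 genes with the largest called changes and Cpt1a, Cpt2, Ppara and Ppargc1a were named; 1 further gene of this rule is not reported here. The fitting code was tested on simulated data. Alternatives were DESeq2's size factors (RLE) in edgeR, no filter, DESeq2 1.42.0, one model over all 48 libraries, a block for the replicate number, each library left out in turn and, chosen after seeing the data, library totals without TMM factors.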

Additional observations from a re-analysis of the deposited data

Results flagged for a closer look

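The values below are differences between the strains in their response to a condition (the DBA/2J log2 change minus the C57BL/6J log2 change, edgeR interaction term), each past an adjusted p of 0.05 over all genes. For the step from 6 h to 24 h of control culture this was Acaa2, at 0.968 (adjusted p = 0.0352). It was not called with library totals (adjusted p = 0.0517), with the replicate block (0.115) or with any 1 of 8 of the 12 libraries left out (0.0534 to 0.112).

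For normoxia against the 24 h controls the negative differences were Acsm3 at -1.35, Acox2 at -1.08, Acaa2 at -1.019, Crot at -0.9703, Ehhadh at -0.8603, Acadm at -0.8599 and Eci3 at -0.8186. Smaller ones were Acadsb at -0.6098, Etfb at -0.6082, Bdh1 at -0.563, Crat at -0.5013 and Slc25a20 at -0.3864. Acaa1a was the single positive one, at 0.4475 with an edgeR adjusted p of 0.0477, and it was not called with DESeq2, library totals, DESeq2's size factors in edgeR or the model over all 48 libraries.

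For normoxia-hyperoxia against normoxia the positive differences were Acsm3 at 1.017, Acot12 at 0.9091 and Acaa2 at 0.8982. The negative ones were Abcd3 at -0.8162, Acaa1a at -0.6218, Acad10 at -0.6105, Acadvl at -0.4631, Acads at -0.4 and Etfdh at -0.3931. Acaa2, Acaa1a and Acsm3 appear in both oxygen comparisons with opposite signs, and these comparisons share the normoxia libraries.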

How the results depend on the processing

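Every total of called genes among the 36 over both strains, higher and lower together, stayed within 1.5 times its value under every alternative run. Splits by direction could move more, as Hadha's rise under normoxia-hyperoxia against normoxia was lost in several runs. When libraries were left out one at a time, 33 to 34 genes were called between the control times and 36 under normoxia. That range was 30 to 33 for normoxia-hyperoxia against the 24 h controls and 32 to 34 against normoxia. Counts of strain differences moved more, and the cause was not tested. In the model over all 48 libraries the counts were 9 in the 6 h controls, 14 under normoxia and 9 under normoxia-hyperoxia, and those of differing responses were 2 for the control times, 7 for normoxia, 1 for normoxia-hyperoxia against the 24 h controls and 4 against normoxia. The differing response between control times counted 3 without the low-count filter, 0 with library totals (an alternative chosen after seeing the data) and 0 to 1 with a library left out. For normoxia-hyperoxia against the 24 h controls it counted 8 without the filter, 6 with DESeq2, and 0 to 8 with a library left out, the 8 without DBA/2J 24 h control replicate 2. With a library left out the strain counts ran from 10 to 24 in the 6 h controls and from 11 to 18 under normoxia-hyperoxia. The response difference between normoxia and normoxia-hyperoxia counted 6 without DBA/2J normoxia replicate 2 and 12 without C57BL/6J normoxia-hyperoxia replicate 2. For normoxia against the 24 h controls it counted 9 to 17 with a library left out. Cat between the control times was 0.077 with library totals against -0.13, neither called.

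The labels do not pair same-numbered replicates, and the correlations of their deviations gave a mixed answer. In 0 of 10 comparisons were the correlations of both strains all over 0.1 (means 0.0136 to 0.179), but within 1 strain all 3 were over 0.1 in 6 of 20 cases. These cases include C57BL/6J under normoxia-hyperoxia against the 24 h controls. With the replicate number as a block, 33, 36, 33 and 33 genes were called for the control times, normoxia, and normoxia-hyperoxia against the 24 h controls and against normoxia. The block gave 0 differing responses between control times and 2 for normoxia-hyperoxia against the 24 h controls, and it called Ehhadh there (adjusted p = 0.028). The Acaa2 difference between control times had an adjusted p of 0.115 with the block. Acox2, on few counts, limits what can be said at the depth of the shallowest library.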

Other observations

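Genes known as PPAR alpha targets outside mitochondrial and peroxisomal fatty acid oxidation moved in both directions. Of 11 tested, 5 were higher and 6 lower at 24 h than at 6 h in the controls, 6 higher and 5 lower under normoxia than in the 24 h controls, and 5 higher and 5 lower under normoxia-hyperoxia than under normoxia (edgeR), beside 72%, 82% and 73.5% of all genes called. The lipid droplet coat gene Plin2 rose by 3.40 on the log2 scale between the control times and stood 4.54 lower under normoxia (log2 change -4.54 ± 0.10). Hilpda, an inhibitor of lipolysis induced by hypoxia, rose by 1.36 between the control times, changed by -5.64 ± 0.14 under normoxia and was 4.04 higher under normoxia-hyperoxia than under normoxia. Cyp4a10, a fatty acid omega-hydroxylase, changed by -2.13, 4.27 and -5.33 in the same order. Pdk4, which restrains glucose oxidation, was 4.24 ± 0.23 higher under normoxia-hyperoxia than under normoxia.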
